A study of Homo sapiens with 20 samples.

Results

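Metallothioneins are small proteins, rich in the amino acid cysteine, that bind zinc and copper and buffer the free metal in the cytosol. Their genes are known targets of MTF1, a transcription factor that senses zinc and binds short promoter sequences called metal response elements (MREs). Another known target is SLC30A1, the gene of the plasma membrane transporter ZnT1, which exports zinc from the cell. The 8 genes described here were chosen by name, with earlier results of these data known. They are the metallothionein genes MT2A, MT1X, MT1F, MT1E, MT1G and MT1M, the exporter SLC30A1 and the regulator MTF1. All 8 were found among the 60271 genes counted, each in 1 row.

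The cells were MDA-MB-468, an established line of triple-negative breast cancer epithelial cells with a high level of the receptor for epidermal growth factor (EGF). After serum starvation, cells were left untreated as the control or received EGF at 50 ng/mL. There were 4 treated groups, at 12, 24, 48 and 72 h, and each of the 5 groups had 4 biological replicates, which makes 20 RNA-seq libraries. According to the sample labels, seeding and harvest were shared by all groups, and EGF was added at different times before harvest. The libraries held between 15611961 and 25856953 estimated counts. Levels are in CPM, the count scaled to a common library size by the TMM method, and are given with the SD between the 4 replicates. Differences were tested in edgeR by quasi-likelihood, and each adjusted p was corrected over all 16522 tested genes by the Benjamini-Hochberg method, with a threshold of 0.05. All EGF-treatments were compared with the same 4 control libraries. In these bulk samples, a higher level per cell and a larger share of expressing cells cannot be told apart.

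The labelled cell type was checked against marker genes. EGFR had a mean of 6897 CPM over the 20 libraries, the keratin gene KRT18 2170.0 CPM and the epithelial surface gene EPCAM 177 CPM. Among receptors of other breast cancer classes, PGR had 0 counts in all libraries, ESR1 had a mean of 3.90 CPM and ERBB2 14.4 CPM. Of 10 leukocyte, endothelial and fibroblast markers, 7 (PTPRC, CD3E, VWF, CDH5, COL1A2, DCN and PDGFRB) did not pass the filter on low counts, and together they held 0.151 to 0.481 CPM in the control libraries and at most 0.874 CPM in any EGF library. CD68, COL1A1 and PECAM1 passed it, with means of 15.2, 10.5 and 2.59 CPM. Mitochondrial genes held 9.03 to 12.6% of counts in the control, 7.69 to 11.3% at 12 h, 11.1 to 13.8% at 24 h, 9.83 to 16.9% at 48 h and 12.3 to 16.4% at 72 h. The part of this share in the results was not tested.

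All 6 metallothionein genes lie in a cluster on chromosome 16 of GRCh38, in the GENCODE 29 annotation. MT2A (ENSG00000125148) lies at chr16:56608199-56609497, MT1E (ENSG00000169715) at chr16:56625475-56627112, MT1M (ENSG00000205364) at chr16:56632233-56633986, MT1F (ENSG00000198417) at chr16:56657694-56660698 and MT1X (ENSG00000187193) at chr16:56682424-56684196, all on the plus strand. MT1G (ENSG00000125144) lies between them on the minus strand, at chr16:56666731-56668065. SLC30A1 (ENSG00000170385) and MTF1 (ENSG00000188786) lie on the minus strand of chromosome 1, at chr1:211571568-211578742 and chr1:37809567-37859620.

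The 4 metallothionein genes with substantial counts encode proteins of 61 codons. Their coding sequences are shown because they are near copies of each other, which bears on how reads are assigned. Capitals mark the cysteine codons, of which each gene has 20.
MT2A: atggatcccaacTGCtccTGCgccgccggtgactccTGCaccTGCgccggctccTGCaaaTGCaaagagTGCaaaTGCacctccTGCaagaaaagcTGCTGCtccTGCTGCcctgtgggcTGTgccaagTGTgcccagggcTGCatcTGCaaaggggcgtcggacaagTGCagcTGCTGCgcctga
MT1X: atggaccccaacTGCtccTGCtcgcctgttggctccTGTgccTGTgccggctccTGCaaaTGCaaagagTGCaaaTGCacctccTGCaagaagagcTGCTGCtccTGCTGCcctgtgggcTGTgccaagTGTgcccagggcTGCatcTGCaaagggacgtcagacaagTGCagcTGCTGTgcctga
MT1F: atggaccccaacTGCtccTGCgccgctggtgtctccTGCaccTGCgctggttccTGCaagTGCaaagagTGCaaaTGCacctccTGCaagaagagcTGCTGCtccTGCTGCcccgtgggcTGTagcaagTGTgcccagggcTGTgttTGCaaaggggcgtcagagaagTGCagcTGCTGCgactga
MT1E: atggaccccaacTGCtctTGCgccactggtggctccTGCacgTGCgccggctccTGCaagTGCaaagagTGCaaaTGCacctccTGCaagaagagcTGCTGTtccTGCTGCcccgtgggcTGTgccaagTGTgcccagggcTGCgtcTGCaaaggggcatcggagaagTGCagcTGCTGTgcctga
Compared base by base over their 186 bases, MT2A shared 172 bases with MT1X, 172 with MT1E and 170 with MT1F. The lowest identity was that of MT1X and MT1F, at 88.7%.

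Because of this likeness, each possible read of 75 bases in the genes' coding transcripts was searched in the GENCODE 29 transcripts of all other genes, on both strands. For MT2A, MT1F and SLC30A1, 100% of such reads occurred in no other gene. The share was 99.6% for MTF1, 99.8% for MT1M, 98.6% for MT1E and 94.3% for MT1G. For MT1X it was 63.2%, with matches in MT1G, in the related transcript MT1XP1 and in AC026461.1, a gene that overlaps MT1X on the same strand. The levels of MT1X and MT1G are therefore uncertain to the extent that shared reads were assigned to one gene or another, and the authors' rule for such reads is not given in the sources used here.

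The metallothionein genes MT2A, MT1X and MT1F rose by 12 h of EGF-treatment and MT1E by 24 h, and all 4 were still higher than the control at 72 h. SLC30A1 and MTF1 were higher at 12 and 24 h and did not pass the test against the control at 48 h. The call of MTF1 at 24 h was lost in 8 of 18 alternatives. At 72 h, MTF1 was higher than the control again (0.25, adjusted p = 0.00400 by edgeR), and SLC30A1 did not pass (0.24, adjusted p = 0.0711 by edgeR). Of the 8 genes, 6 were kept by edgeR's filter and tested. Without it, MT1G was called as well at 48 h, as described with its counts. At 12 h, 5 of these 6 were higher than in the control, where 69.4% of all tested genes were called, 32.9% as higher and 36.5% as lower. At 24 h, 6 of 6 were higher, against a background of 58.8% called (29.2% higher, 29.6% lower). At 48 h, 4 of 6 were higher, against 45.8% called (24.0% higher, 21.8% lower). At 72 h, 5 of 6 were higher, against 61.6% called (30.6% higher, 31.0% lower). None of the 6 was called lower than in the control at any time, except MT1E at 12 h when libraries were scaled by their size only. The median log2 fold change over the 6 genes was 0.78, 1.11, 1.60 and 1.69 at 12, 24, 48 and 72 h, whereas the median over all tested genes was between -0.05 and 0.01. These counts and medians cannot show an excess over all genes, because the genes were chosen with earlier results of these data known. With library size only, 30.2% of the calls at 12 h and 36.3% of those at 24 h were higher, against 47.4% and 49.6% with TMM.

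**Figure D1:**
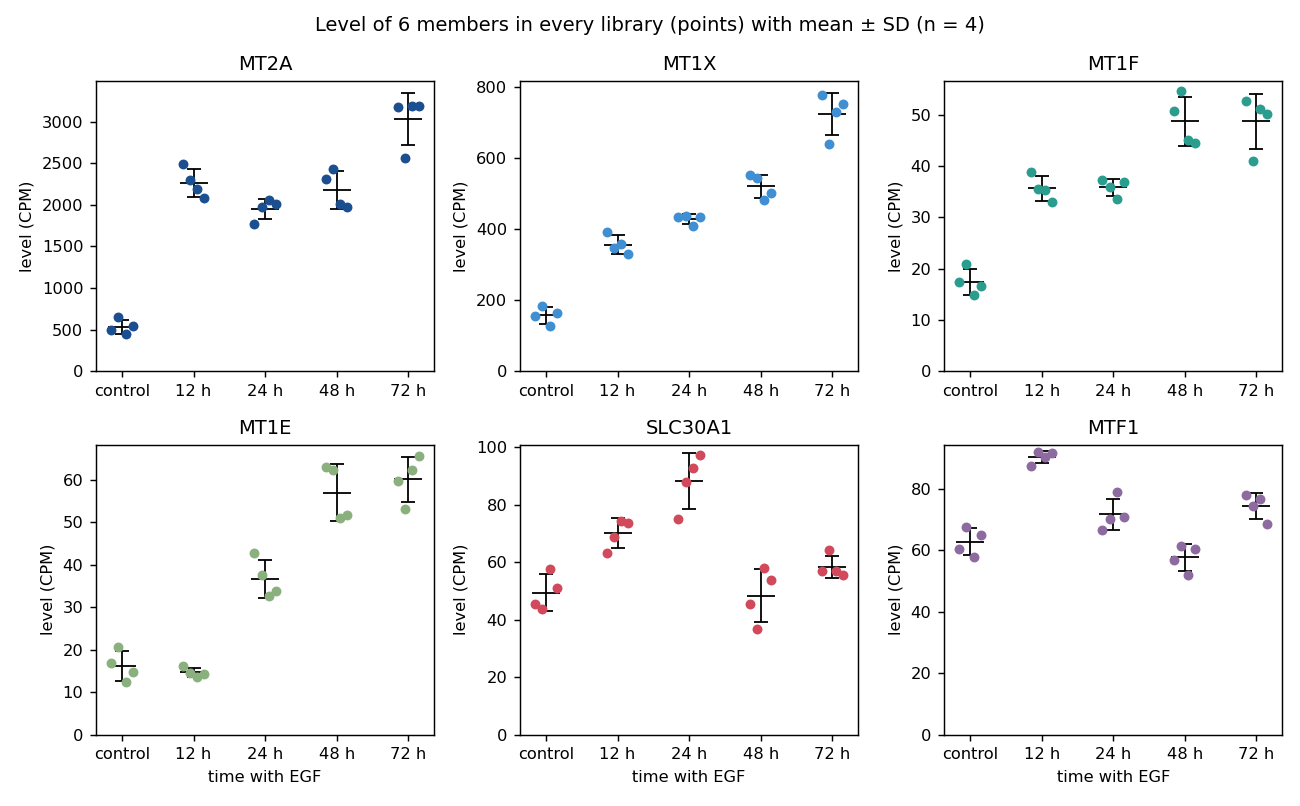
Level in CPM after TMM normalization (vertical axis, from 0) of 6 genes in each of the 20 libraries (points) by time with EGF, with the mean and SD of each group of 4 as black bars. The metallothionein genes MT2A, MT1X and MT1F lie above the control at all times, MT1E from 24 h on, and SLC30A1 peaks at 24 h with a mean of 88.1 CPM.

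MT2A, the most highly expressed metallothionein gene of these cells, showed the largest rise among the 6 genes. It was measured at 495, 648, 453 and 548 CPM in the 4 control libraries. After 12 h of EGF, the libraries held 2486, 2293, 2186 and 2085 CPM. All of these are more than 3 times the highest control value. At 24 h, the values were 1775, 1969, 2055 and 2009 CPM. At 48 h, they were 2308, 2431, 2008 and 1969.5 CPM, and at 72 h 3180.4, 2559.7, 3195 and 3188 CPM. No EGF library overlapped with the control at any time. The control mean was 536 ± 84.1 CPM (SD, n = 4) and the 12 h mean 2262 ± 172 CPM, a log2 fold change of 2.08 (SE 0.0996, adjusted p = 9.73e-15 by edgeR). It was 1.86 at 24 h, 2.02 at 48 h and 2.50 at 72 h (SE 0.101, adjusted p = 4.58e-16 by edgeR), which is a 5.65-fold rise. By CPM, MT2A ranked 195 of 16522 genes in the control and 22 at 72 h.

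The time course of MT2A had a plateau and then a second rise. The levels at 12 and 48 h did not differ beyond their spread (log2 difference -0.05, SE 0.0956, adjusted p = 0.624), nor did those at 48 and 24 h (0.16, SE 0.0957, adjusted p = 0.175). The decrease from 12 to 24 h did not pass the test either (-0.21, SE 0.0957, adjusted p = 0.0643), although all 4 libraries at 24 h lay below all 4 at 12 h. This difference passed with DESeq2 size factors (-0.23, adjusted p = 0.0404) and with DESeq2's Wald test (-0.23, adjusted p = 0.0446), with only the 8 libraries compared (-0.20, adjusted p = 0.00587), with no filter beyond 1 count (-0.25, adjusted p = 0.0350) and without replicate 4 of 12 h (-0.25, adjusted p = 0.0474). By library size only, the difference between 48 and 24 h passed as well (0.31, adjusted p = 0.00788). From 48 to 72 h, MT2A rose by a log2 fold change of 0.48 (SE 0.0958, adjusted p = 0.000415), and the groups did not overlap.

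MT1X, the metallothionein gene with the next highest level, rose at each step. The control libraries held 155, 183, 128 and 163 CPM. At 12 h, the values were 392, 346, 359 and 330 CPM, and at 24 h 434, 438, 408 and 433 CPM. These groups do not overlap with each other or with the control. At 48 h, MT1X was at 554, 544, 484 and 501 CPM, and at 72 h at 778, 640, 730 and 752 CPM. The log2 fold change against the control was 1.18 (SE 0.0859) at 12 h and 1.45 at 24 h. It was 1.73 after 48 h and 2.21 (SE 0.0882, adjusted p = 3.40e-16 by edgeR) at 72 h, a 4.61-fold rise. Between successive times, MT1X rose by 0.26 from 12 to 24 h (adjusted p = 0.0111), by 0.28 from 24 to 48 h (adjusted p = 0.00769) and by 0.48 from 48 to 72 h (adjusted p = 9.70e-05), all on the log2 scale by edgeR.

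MT1F rose in 2 steps. It was at 17.3, 20.9, 14.9 and 16.6 CPM in the control, at 38.9, 35.5, 35.4 and 32.9 CPM at 12 h, and at 37.2, 35.8, 33.5 and 36.8 CPM at 24 h. The groups at 12 and 24 h overlapped, with a log2 difference of 0.01 (SE 0.0957, adjusted p = 0.953). At 48 h, the values were 50.7, 54.6, 45.1 and 44.4 CPM, and at 72 h 52.6, 40.9, 51.0 and 50.1 CPM. The log2 fold change against the control was 1.03 (SE 0.0987, adjusted p = 2.08e-09) at 12 h and 1.48 (SE 0.0984, adjusted p = 4.45e-12) at 72 h. From 24 to 48 h, it rose by 0.44 (SE 0.0947, adjusted p = 0.000478), and between 48 and 72 h the means were 48.7 CPM at both times.

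MT1E responded later than the other metallothionein genes that passed the filter. The control libraries held 16.9, 20.7, 12.4 and 14.7 CPM, and the 12 h libraries 16.2, 14.5, 13.6 and 14.3 CPM, all within the range of the control. At 24 h, MT1E was at 42.7, 37.7, 32.7 and 33.9 CPM, above all libraries of the control and of 12 h. At 48 h, the values were 63.1, 62.4, 50.9 and 51.7 CPM, and at 72 h 59.8, 53.1, 62.3 and 65.7 CPM. At 12 h, the log2 fold change was -0.14 (SE 0.128, adjusted p = 0.336). This value depended on the scaling: by library size only it was -0.43 with an adjusted p of 0.00556, a setting under which the median over all genes moved from -0.05 to -0.34. Without control replicate 2, it was 0.0074. The log2 fold change was 1.18 (SE 0.123) at 24 h, 1.82 at 48 h and 1.89 (SE 0.122, adjusted p = 2.69e-12 by edgeR) at 72 h. From 12 to 24 h, MT1E rose by 1.32 (adjusted p = 8.19e-09), and from 24 to 48 h by 0.63 (SE 0.117, adjusted p = 9.52e-05), whereas 48 and 72 h did not differ beyond their spread (0.08, SE 0.115, adjusted p = 0.631).

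**Figure D2:**
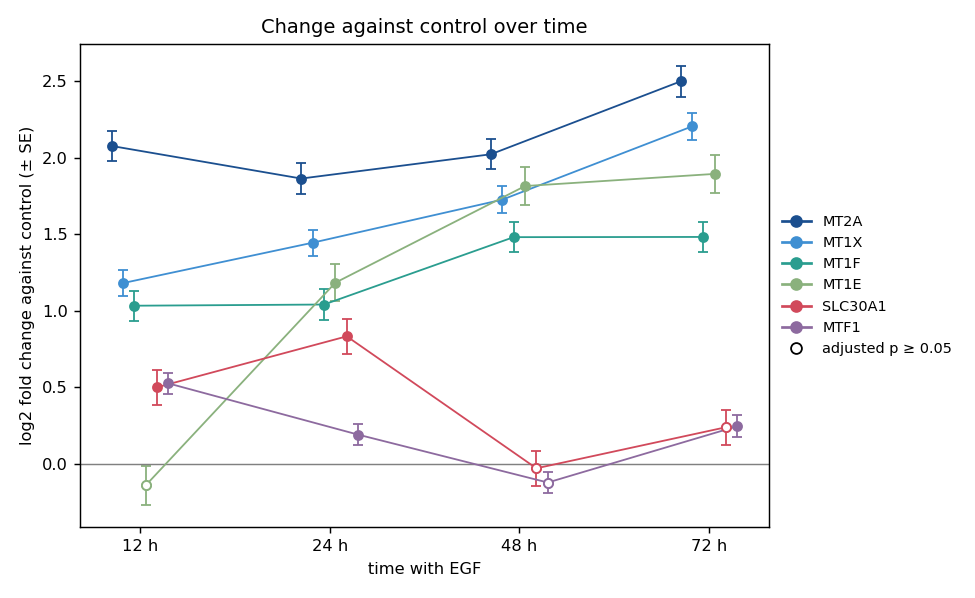
Log2 fold change against the control with its SE (vertical axis) by time with EGF for the 6 genes that passed the filter, with open points where the adjusted p was 0.05 or more. MT2A is highest at all 4 times, MT1E moves from -0.14 at 12 h to 1.89 at 72 h, and SLC30A1 and MTF1 are near 0 at 48 h.

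The metallothionein transcripts did not rise in proportion. This was examined by the ratio of each gene to MT2A within the same library, which does not depend on the scaling of libraries. The ratios were chosen after the levels had been seen, and were compared by a two-sided exact permutation test, for which 0.0286 is the smallest p that 4 against 4 libraries allow. P values were adjusted over 12 tests. For MT1E, the log2 ratio to MT2A was -5.06 ± 0.171 (SD, n = 4) in the control, between -5.22 and -4.87. At 12 h, it was -7.27 ± 0.0617, between -7.32 and -7.18, a difference of -2.21 (exact permutation p = 0.0286, adjusted p = 0.0312). In other terms, MT1E was at 2.99 counts per 100 MT2A counts in the control and at 0.649 at 12 h. The ratio then returned to -5.74 at 24 h and -5.26 at 48 h, and was -5.65 at 72 h. At 48 h, the difference from the control of -0.19 did not pass the test (exact permutation p = 0.0857), while at 24 and 72 h it had the same p values as at 12 h.

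MT1X and MT1F were also lower relative to MT2A after EGF-treatment. MT1X was at 29.4 counts per 100 MT2A counts in the control, and at 15.8, 22.0, 24.0 and 24.0 in the 4 EGF-treatments in order of time. MT1F was at 3.25 counts per 100 MT2A counts in the control, and at 1.58, 1.84, 2.24 and 1.61 in the same order. In all 8 comparisons, the EGF libraries lay below the control libraries without overlap (exact permutation p = 0.0286, adjusted p = 0.0312 in each). The 3 ratios share MT2A as the reference, and are therefore not independent of each other.

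**Figure D3:**
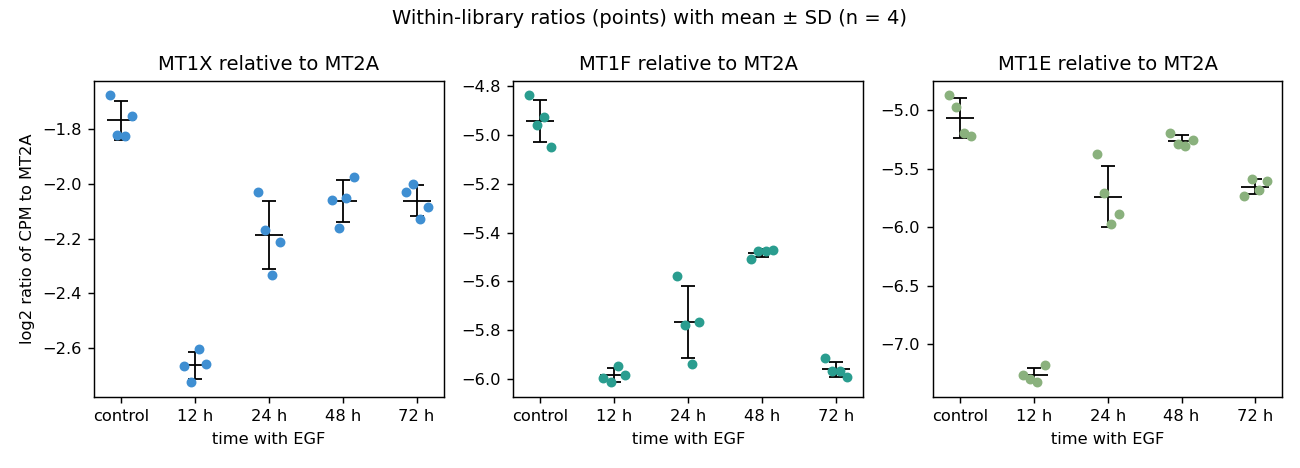
Log2 ratio of the CPM of MT1X, MT1F and MT1E to that of MT2A (vertical axes, each with its own range) in each library (points) by time with EGF, with mean and SD of each group of 4 as black bars. All 3 ratios are lowest or near their lowest at 12 h, and that of MT1E falls from -5.06 in the control to -7.27.

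The summed level of the 6 metallothionein genes was 727 ± 112 CPM in the control, 2670 ± 199 CPM at 12 h, 2453 ± 111 CPM at 24 h, 2806 ± 268 CPM at 48 h and 3865 ± 381 CPM at 72 h (SD, n = 4). MT2A made up 73.7% of this sum in the control and 84.7% at 12 h, and MT1X 21.7% and 13.4%. Markers of other cell types moved over the same times. The summed level of the 10 leukocyte, endothelial and fibroblast markers was 8.27 to 11.1 CPM in the control libraries, 26.2 to 27.2 CPM at 12 h, 29.8 to 33.6 CPM at 24 h, 28.4 to 34.0 CPM at 48 h and 40.05 to 46.3 CPM at 72 h. Part of it was CD68, a lysosomal gene used as a macrophage marker. CD68 was at 1.15 ± 0.331 CPM in the control and at 16.4, 17.3, 14.6 and 26.7 CPM (means) in the 4 EGF-treatments. COL1A1 held more of the sum than CD68 in the control, with a mean of 6.18 CPM, and had a mean of 13.9 CPM after 72 h. The leukocyte markers PTPRC and CD3E were at or below 0.304 CPM in every library. The part of these markers in the metallothionein levels was not tested.

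As transcripts of different lengths are counted here, levels were also divided by the exon length of the coding transcripts. Per kilobase, the control mean was 541 CPM for MT2A, 191 CPM for MT1X, 23.7 CPM for MT1F, 15.4 CPM for MT1E, 9.03 CPM for SLC30A1 and 7.86 CPM for MTF1. At 72 h, these means were 3058, 881, 66.3, 57.2, 10.7 and 9.32 CPM per kilobase in the same order.

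MT1G and MT1M were at or near the limit of detection and did not pass edgeR's filter on low counts. MT1G had 2, 2, 2 and 1 counts in the control libraries, between 1 and 4 counts at 12 h and between 1 and 6 at 24 h. At 48 h, it had 12, 8, 10 and 16 counts, more than in any control library, and at 72 h 2 to 4. The mean of MT1G at 48 h was 3.94 times a floor of 3 counts per library in the control. This ratio is not a lower bound of the change, because the control counts were above 0 and the spread at 48 h was left out. With no filter beyond 1 count, the log2 fold change at 48 h was 2.66 (SE 0.598). At the other 3 times, part of the libraries were at or under the floor. In the alternatives that keep such genes, MT1G passed at 48 h against the control with no filter beyond 1 count (adjusted p = 0.000380 by edgeR) and with DESeq2's Wald test (adjusted p = 0.000923). It was also higher at 48 than at 24 h (adjusted p = 0.0366 and 0.0420) and lower at 72 than at 48 h (adjusted p = 0.0159 and 0.0195), but did not pass against the control at 12, 24 or 72 h. MT1M had 0 counts in 19 libraries and 1 count in 1 library at 72 h. As 3 counts are the floor that a count of 0 allows, its level was under 0.137 CPM in the control, for counting error only. The other 12 metallothionein genes and pseudogenes on the list were found in the files, but 0 of 12 passed the filter, and the highest count of any was 5.

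SLC30A1, the zinc exporter, had its highest level at 24 h. The control libraries held 45.4, 43.6, 57.5 and 51.1 CPM. At 12 h, the values were 63.1, 68.7, 74.3 and 73.7 CPM, and at 24 h 74.9, 87.8, 92.6 and 97.2 CPM, above all control libraries. At 48 h, SLC30A1 was at 45.3, 36.7, 57.8 and 53.7 CPM, which spans the range of the control, and at 72 h at 57.0, 64.1, 57.0 and 55.4 CPM. The log2 fold change was 0.50 (SE 0.113, adjusted p = 0.000405) at 12 h and 0.83 (SE 0.113, adjusted p = 9.94e-07) at 24 h. By library size only, the rise at 12 h was 0.22 with an adjusted p of 0.0876. At 48 h, the difference from the control was -0.03 (SE 0.113, adjusted p = 0.856). At 72 h, it was 0.24 (SE 0.113, adjusted p = 0.0711), with 1 of 4 EGF libraries above all controls, which passed with the replicate number as a block (0.25, adjusted p = 0.0242), with only the 8 libraries compared (0.25, adjusted p = 0.0392), with at least 10 counts in every library (0.29, adjusted p = 0.0254) and without control replicate 3 (0.32, adjusted p = 0.0214).

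The decrease of SLC30A1 between 24 and 48 h was the largest change of the exporter between successive times, with a log2 fold change of -0.86 (SE 0.113, adjusted p = 1.24e-06), and the libraries of the 2 times did not overlap. Of all tested genes, 4.15% had a lower value in this comparison. The rise from 12 to 24 h was 0.33 (SE 0.112, adjusted p = 0.0152), but did not pass without replicate 1 of 12 h (0.28, adjusted p = 0.0585) or without replicate 4 of 24 h (0.28, adjusted p = 0.0589). At 48 h, MT1E, MT1F and MT1X were higher than at 24 h, while SLC30A1 was lower and MT2A did not pass the test.

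MTF1, the zinc-sensing regulator, was highest at 12 h. It was at 60.2, 67.6, 57.9 and 64.9 CPM in the control, and at 87.4, 91.8, 90.3 and 91.4 CPM at 12 h. At 24 h, the values were 66.7, 70.2, 78.8 and 70.7 CPM, at 48 h 56.9, 61.4, 51.9 and 60.3 CPM, and at 72 h 77.9, 74.2, 76.7 and 68.3 CPM. The log2 fold change was 0.53 (SE 0.0699, adjusted p = 4.46e-07) at 12 h, with no overlap. At 24 h, it was 0.19 (SE 0.0701, adjusted p = 0.0229), with 3 of 4 libraries above all controls, and passed in 10 of 18 alternatives only. By library size only it was 0.05 at 24 h. It also did not pass without control replicate 1 (0.17), without control replicate 3 (0.16) or without replicate 3 of 24 h (0.15). At 48 h, MTF1 was at -0.12 (SE 0.0702, adjusted p = 0.162), and at 72 h at 0.25 (SE 0.0701, adjusted p = 0.00400). Between successive times it fell by 0.33 from 12 to 24 h (adjusted p = 0.000318) and by 0.31 from 24 to 48 h (adjusted p = 0.000736), and rose by 0.37 from 48 to 72 h (adjusted p = 0.000236), by edgeR on the log2 scale. By library size only, the fall from 24 to 48 h was -0.16 (adjusted p = 0.0713).

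Tested directly between successive times, 4 of the 6 genes differed between 24 and 12 h, where 53.7% of all tested genes did. The numbers were 5 of 6 between 48 and 24 h, against 50.2%, and 3 of 6 between 72 and 48 h, against 35.7%. The members' median size of log2 fold change was 0.30, 0.38 and 0.32 in these 3 comparisons, and that of all genes 0.38, 0.33 and 0.25.

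The promoters of the members were examined because MREs are where MTF1 is known to bind. Promoter sequences of 4 of the 8 genes (MT2A, MT1X, SLC30A1 and MTF1) were found in the RefSeq table (GRCh38.p14). The MRE core was searched as TGCACNC or TGCGCNC on both strands, in the 250 bases before the RefSeq start site. In the 35116 promoters of the table, 24.8% held at least 1 match, 0.370% at least 4 and 0.0313% at least 7. MT2A had 7 matches, MT1X 4, SLC30A1 1 and MTF1 0. Searched in the same way, MT1H had 8 matches, MT1B 3 and MT4 3. MT1H and MT1B had 0 counts in all libraries, and the highest count of MT4 was 1. The number of matches therefore did not follow the level across these genes. The AP-1 motif TGACTCA overlapped no MRE match. It was present once in the MT2A window and once in that of MT1B, and not in those of MT1X, SLC30A1 and MTF1. Of all promoters, 4.20% held it. A match describes the letters in this window only and is not a measured binding site.

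The MT1X sequence is shown up to the start of its GENCODE 29 exon (chr16:56682220-56682423, plus strand), with the 4 MRE matches in capitals, because MT1X rose at each step.
MT1X: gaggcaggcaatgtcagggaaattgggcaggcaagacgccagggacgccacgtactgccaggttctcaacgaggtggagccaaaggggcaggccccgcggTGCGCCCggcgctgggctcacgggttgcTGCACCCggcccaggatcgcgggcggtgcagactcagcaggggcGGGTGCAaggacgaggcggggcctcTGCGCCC
For SLC30A1, the 250 bases (chr1:211579162-211579411, minus strand, written 5′ to 3′ along the gene) hold a single MRE match in capitals, on the reverse strand. The RefSeq start site is 419 bases upstream of the GENCODE 29 start.
SLC30A1: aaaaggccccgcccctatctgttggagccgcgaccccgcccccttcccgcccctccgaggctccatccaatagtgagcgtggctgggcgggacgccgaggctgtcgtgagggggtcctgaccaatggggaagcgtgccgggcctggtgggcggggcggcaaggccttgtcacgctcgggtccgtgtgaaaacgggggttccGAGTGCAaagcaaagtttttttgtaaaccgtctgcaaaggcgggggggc
For MT2A, whose window lies within an exon of a longer GENCODE 29 transcript that starts 385 bases upstream, 3 short stretches are shown. They cover the positions -158 to -129, -110 to -81 and -64 to -35 from the RefSeq start site (chr16:56608426-56608455, chr16:56608474-56608503 and chr16:56608520-56608549, plus strand). Capitals mark MRE matches, and in the middle stretch also the AP-1 motif TGACTCA, which stands before the MRE match.
MT2A, first stretch: ccgggTGCGCCCggcccagTGCGCGCggcc
MT2A, middle stretch: cgcaagTGACTCAgcgcggggcGTGTGCAg
MT2A, last stretch: gcggggctttTGCACTCgtcccggctcttt

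Other genes of zinc and copper handling changed in both directions. The lists hold 10 other zinc exporters of the SLC30 family and TMEM163, 14 zinc importers of the SLC39 family and 7 copper-handling genes, of which 5, 12 and 7 passed the filter. Of the 5 exporters, 4, 4, 2 and 4 were called against the control at the 4 times, with 1, 2, 0 and 2 of them higher. Their median log2 fold change was -0.54, -0.19, -0.13 and 0.16 at the 4 times. Of the importers, 8, 8, 6 and 8 were called, with 5, 3, 1 and 4 higher. Of the copper-handling genes, 3, 5, 2 and 4 were called, with 1, 2, 0 and 1 higher. With only the 8 libraries compared, 4 of these genes in all were called at 48 h in place of 10. The counts are to be read against the shares of all genes called at each time, given above, and against the medians of all genes near 0.

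Among the zinc exporters, SLC30A7, which moves zinc into the Golgi, rose at 12, 24 and 72 h, by log2 fold changes of 0.57, 0.61 and 0.49, and was at -0.01 (adjusted p = 0.937) at 48 h. Its control mean was 135 ± 13.5 CPM and its 24 h mean 206 ± 13.8 CPM. SLC30A5, SLC30A6 and SLC30A9 were lower at 12 h, with log2 fold changes of -0.61, -0.54 and -0.65, and all 4 EGF libraries lay below all controls for each.

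Among the zinc importers, SLC39A10 and SLC39A14 (ZIP10 and ZIP14), which bring zinc across the plasma membrane, had their highest levels at 12 h. SLC39A10 rose from 15.8 ± 2.40 CPM to 52.1 ± 2.82 CPM (SD, n = 4), a log2 fold change of 1.72 (SE 0.128, adjusted p = 2.71e-11), and was below the control at 48 h (-0.40, adjusted p = 0.0169). SLC39A14 rose from 19.1 ± 0.836 to 53.3 ± 2.92 CPM at 12 h (1.48, SE 0.0958, adjusted p = 2.19e-12), and stayed higher at 72 h (0.81). SLC39A13 rose at 12 h (1.20) and 72 h (0.62). SLC39A11 fell from 36.2 ± 4.22 to 14.7 ± 1.16 CPM at 12 h (-1.30, SE 0.0840), and was at -0.13 (adjusted p = 0.201) at 48 h.

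Among the copper-handling genes, ATP7A, a copper-exporting ATPase, was lower than the control at all 4 times. The control held 44.3 ± 4.31 CPM and the 12 h group 10.7 ± 0.847 CPM (SD, n = 4). The log2 fold change was -2.05 (SE 0.0905, adjusted p = 2.02e-15) at 12 h, and -1.73, -0.51 and -1.31 at the later times. CCS, the copper chaperone of superoxide dismutase, had -0.96 at 24 h at a low level of 3.06 ± 0.456 CPM in the control. SLC31A2 was lower from 24 h on (-0.82, -0.55 and -0.58), and SLC31A1 (CTR1), a copper importer of the plasma membrane, was higher at 12, 24 and 72 h (0.21, 0.39 and 0.53).

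**Figure D4:**
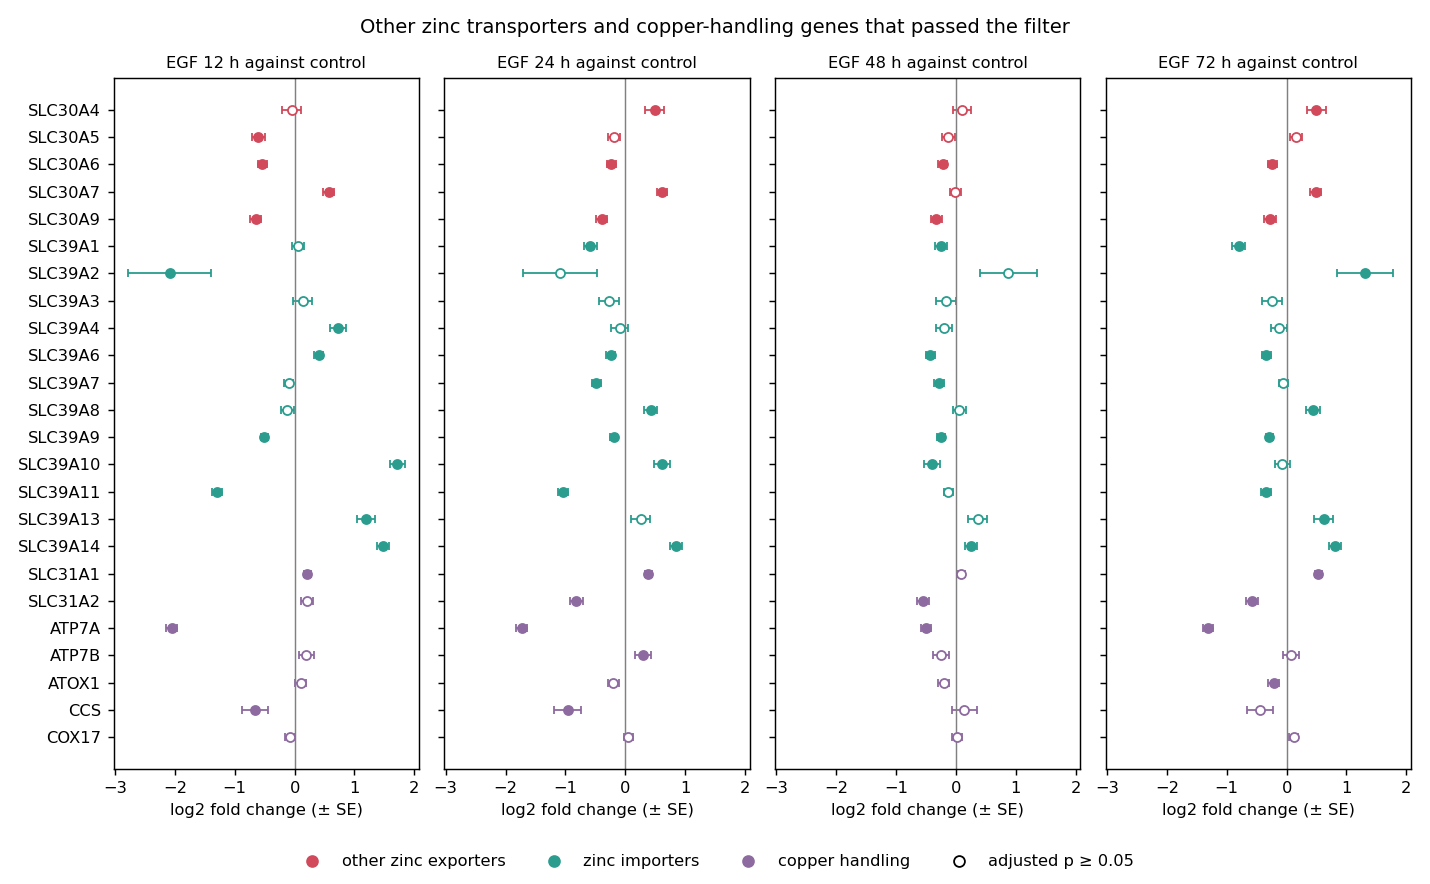
Log2 fold change against the control with its SE (horizontal axis, shared) of the 24 other zinc and copper genes that passed the filter, at 4 times, with filled points where the adjusted p was under 0.05. SLC39A10 is at 1.72 and ATP7A at -2.05 at 12 h, while SLC39A2 has wide errors because it has few counts.

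The genes whose levels over the 20 libraries were most like the summed metallothioneins or SLC30A1 were found by the Pearson correlation of log2(CPM + 1). It was taken among 9014 genes with a mean of at least 10 CPM. For the summed metallothioneins, these were XDH (r = 0.987), TIMP2 (r = 0.986), BHLHE40 (r = 0.984), MID1IP1 (r = 0.981) and ECM1 (r = 0.980). Their control means were between 4.43 and 65.9 CPM. The sum is mostly MT2A, at 73.7% of it in the control and 84.7% at 12 h, against 2.21% and 0.550% for MT1E. These genes are therefore not like each metallothionein gene. From the control to 12 h, the XDH mean rose from 4.80 to 29.7 CPM, while MT1E was at 16.2 and 14.7 CPM. For SLC30A1, the 5 genes were SEPTIN10 (r = 0.982), IPO7 (r = 0.968), DSC2 (r = 0.962), HECA (r = 0.957) and SPIN4 (r = 0.955). The libraries fall into 5 groups of 4 and share depth and scaling, so these values describe a likeness of pattern and are not independent points.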

How the data were processed

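RNA was measured in 20 libraries of MDA-MB-468 cells, as 5 groups of 4 taken from the sample labels. The authors used the Corall mRNA protocol of Lexogen and read 75-base single ends on an Illumina NS500. They deposited 10 tables, one per comparison, with an estimated count for each of 60271 genes in each library, not normalized, and a normalized value, treated here as a score. The 9 other tables hold the same counts as the first, so 1 was used. The labels name hg38 and DESeq2, with no version. The aligner, annotation and handling of unique molecular identifiers are not given in the sources used here. Fold changes and p-values of the deposited comparisons were not used.

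The estimated counts are whole numbers, and were used as such. They were analyzed with edgeR 4.0.16 (quasi-likelihood test, robust form) and limma 3.58.1 in R 4.3.3, with DESeq2 1.42.0 as an alternative. Of 33535 genes with at least 1 count, filterByExpr kept 16522. Libraries were scaled by TMM, and 1 model with 5 group means was fitted. Tests set each time against the control and against its predecessor. For the members, all other pairs of groups were tested as well. The prior count was 0.125. Figures and permutation tests used Python 3.11.15 with SciPy 1.17.1. On simulated data for 12 h against the control, with changes of 2-fold, the test called 156 of 183 changed genes among 15553 tested, and 8 unchanged genes. This rate does not apply to smaller changes. Total counts were 15611961 to 25856953 per library. Counts may hold PCR duplicates, so floors cover counting error only. The labels call the replicates biological but do not describe separate cultures, so p-values measure the spread between these samples, which may be partly technical. Replicates of a group differed by more than the sampling noise. The 8 genes, the lists and the rule for naming were chosen with earlier results of these data known. Named are all 8 genes, and in each list of other zinc and copper genes up to 4 genes with a mean of at least 1 CPM and an adjusted p under 0.05 against the control at any time, by the largest change. The 5 genes most like each pattern were also named. As alternatives, scaling used library size alone, upper quartiles, DESeq2 size factors or factors per gene taken from the deposited normalized values. The filter was removed or raised to 10 counts in every library, the prior count was raised to 2, and a block per replicate number, the 8 libraries of a comparison alone, the DESeq2 Wald test and leaving out single libraries were tried. Positions, transcripts and exon lengths came from GENCODE 29, in which 58036 of the deposited gene IDs were found, and promoters from RefSeq (GRCh38.p14).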

Additional observations from a re-analysis of the deposited data

Results flagged for a closer look

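Among 30 groups of 4 libraries, a library far from the other 3 was found in 2. MT1X at 24 h was lowest in replicate 3, at 407.9 CPM, and MT2A at 72 h was lowest in replicate 2, at 2559.7 CPM. Chance flags about 1 in 20 groups by this test.

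The effects of EGF against the control differed between successive times, by edgeR's test of the difference itself, in 12 cases. Between 12 and 24 h the log2 differences were 1.32 for MT1E, 0.26 for MT1X, 0.33 for SLC30A1 and -0.33 for MTF1. Between 24 and 48 h they were 0.63 for MT1E, 0.44 for MT1F, 0.28 for MT1X, -0.86 for SLC30A1 and -0.31 for MTF1. Between 48 and 72 h they were 0.48 for MT1X, 0.48 for MT2A and 0.37 for MTF1.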

How the results depend on the processing

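The rises of MT2A, MT1X and MT1F against the control at all 4 times, and those of MT1E at 24, 48 and 72 h, kept their direction and passed under all 18 alternatives tried for each. Among the 18, the prior count of 2 altered the fold changes only, so it could not change a call. Of 756 comparisons of members with an alternative, that one included, 709 kept direction and side of the threshold. With library size only, the median over all genes at 12 h was -0.34 (30.2% of calls higher, against 47.4%), with upper-quartile factors -0.22 (37.2% higher), and with factors per gene from the deposited values 0.06 (55.3%). At 24 h, library size only gave 36.3% higher against 49.6%. Between successive times, library size only gave 68.6%, 71.8% and 33.8% higher, against 51.9%, 51.5% and 50.0%. For 24 against 12 h, upper-quartile factors gave 66.1% and factors per gene 39.2%. Factors per gene were possible for 11956 genes, and called 7813, 6336, 4334 and 6559 of them against the control and 5835, 4993 and 3209 between successive times. Signs turned in results that did not pass the test. MT1E at 72 against 48 h was -0.0073 with library size only. MT1F at 24 against 12 h was -0.012 with DESeq2 size factors, -0.030 with no filter beyond 1 count and -0.014 with DESeq2's Wald test, and MT1F at 72 against 48 h was -0.085, -0.043 and -0.023 with library size only, upper-quartile factors and factors per gene. SLC30A1 at 48 h was 0.0087 with at least 10 counts in every library. Leaving out a library gave ranges that crossed 0 in 4 comparisons: MT1E at 12 h -0.25 to 0.0074, MT1F at 24 against 12 h -0.031 to 0.0498, MT1F at 72 against 48 h -0.0402 to 0.077, and SLC30A1 at 48 h -0.13 to 0.083. The MTF1 call at 24 h was lost in 8 alternatives, and the SLC30A1 values at 72 h passed in 4. With only the 8 libraries compared, 4 of the other zinc and copper genes were called at 48 h in place of 10, a fit with fewer samples. Of 40 correlations of same-numbered libraries, 12 were over 0.1 (-0.37 to 0.57). All 4 were over it between 12 and 48 h only, a pair used for the members only, and the numbers were not taken to pair the samples. The replicate block left the count of members called within 1.5 times. SLC30A1 at 72 against 48 h did not pass in the main fit (0.27, adjusted p = 0.0686 by edgeR) but passed in 4 of 18 alternatives. These were the replicate block (0.29, adjusted p = 0.0208) and at least 10 counts in every library (0.29, adjusted p = 0.0470). The others left out replicate 3 of 48 h (0.37, adjusted p = 0.0158) or replicate 4 of 48 h (0.32, adjusted p = 0.0489). Few counts limit MT1G, which was called at 48 h where the filter let it in, and MT1M. The causes of these differences were not tested.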
